A study of Caenorhabditis elegans with 2 samples.

Results

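The cytochrome P450 genes of Caenorhabditis elegans were examined for chromatin binding of NHR-11, a transcription factor of the nuclear hormone receptor class, in late embryos. They were taken as the protein-coding genes of the Ensembl WBcel235 annotation whose name starts with cyp-, together with daf-9, which gave 75 of 19973 protein-coding genes. All 75 carried a cytochrome P450 product name in the RefSeq annotation of the same build. A product name that mentions cytochrome P450 was also found at 5 genes outside the set. These were C05C10.5, R10F2.5, T23E1.3, dach-1 and the P450 reductase gene emb-8. The 75 genes belong to 26 subfamilies in 16 families, and 41 of them lie on chromosome V. The samples were 2 biological replicates of 1 group, whole embryos of strain OP305 of both sexes. The strain has the genotype unc-119(ed3) III; wgIs305, where wgIs305 is an insertion that encodes NHR-11 fused to eGFP, so both replicates carry the unc-119 mutation and the transgene. The labels give neither the copy number of the insertion nor an untagged group, and the control they name was not analysed here. Whole embryos were used, so the cells in which a site was bound are not known.

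Chromatin immunoprecipitation followed by sequencing (ChIP-seq) recovers the DNA to which a protein is crosslinked, and a peak is a stretch of the genome where the recovered fragments pile up over a control. The measurements were the authors' peak lists on the ce11 build, in which each peak has a signal value and a summit, the base taken as its centre. Ranks count from 1, the strongest peak of a list. The list of both replicates together (pooled) held 9931 peaks, with a median signal of 25.9. The lists of replicate 1 and replicate 2 held 25795 and 29222 peaks. These lists and the pooled list all reach far into the background, with false discovery rates of up to 0.96. Of the 9931 pooled peaks, 30 had a false discovery rate of at most 0.05. The authors' list of reproducible (thresholded) peaks held 101, and these were the 101 strongest of the pooled list. Signals are the authors' values, compared by rank within a list or between replicate peaks near 1 pooled summit, and the read depth behind them is unknown. With 1 group of 2 replicates no test between conditions was possible, and every count below is a description set beside the same count over all protein-coding genes.

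Cytochrome P450 enzymes are heme proteins that insert oxygen into small lipophilic molecules, using electrons from a reductase. In the worm some of them oxidise foreign compounds, mainly in the intestine, and others act on the body's own sterols and fatty acids. DAF-9 makes the dafachronic acids, the steroid ligands of the nuclear receptor DAF-12. Nuclear receptors of the worm are known regulators of several P450 genes.

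For each gene, the strongest peak was taken whose summit lay within 1000 bp of the 5' end of the gene record. The 6 pooled peaks at P450 genes that ranked among the 2000 strongest are shown first, because the results turn on them. The site at cyp-13A1 is added because it was the only pooled site at a P450 gene with a nuclear receptor half-site near its summit. Each line gives the 151 bases centred on the pooled summit, or 29 bases at cyp-13A2 and cyp-29A2, whose summits lay in annotated UTRs, on the forward strand of ce11, 5′ to 3′, from the RefSeq WBcel235 genome. Capitals mark matches, on either strand, to any of 5 motifs. The first is the nuclear receptor half-site AGGTCA. Another half-site, read by some nuclear receptors, is GGGTCA. The GATA factor motif was searched as TGATAA. The repeat bound by GAGA-type factors in flies was searched as GAGAGA. The motif of forkhead factors was searched as GTAAACA.
cyp-13A2 (chrII:9787461-9787489): ctttttctatcgccagctctccgTCTCTC
cyp-13A3 (chrII:9793434-9793584): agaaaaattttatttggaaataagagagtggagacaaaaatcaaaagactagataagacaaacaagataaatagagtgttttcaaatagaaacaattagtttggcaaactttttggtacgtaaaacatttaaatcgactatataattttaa
cyp-33C2 (chrV:2183082-2183232): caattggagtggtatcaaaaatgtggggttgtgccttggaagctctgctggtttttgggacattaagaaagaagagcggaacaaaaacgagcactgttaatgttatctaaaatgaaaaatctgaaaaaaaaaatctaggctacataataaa
cyp-13A8 (chrII:9807318-9807468): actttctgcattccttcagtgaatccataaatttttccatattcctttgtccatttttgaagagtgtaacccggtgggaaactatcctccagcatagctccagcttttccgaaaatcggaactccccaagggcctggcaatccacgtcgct
cyp-33C12 (chrV:2204583-2204733): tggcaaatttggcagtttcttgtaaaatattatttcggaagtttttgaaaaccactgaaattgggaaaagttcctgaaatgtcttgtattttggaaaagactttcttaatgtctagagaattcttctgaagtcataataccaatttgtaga
cyp-29A2 (chrV:11216756-11216784): taataaactaaagaaccacaatgaaggtc
cyp-13A1 (chrII:9781214-9781364): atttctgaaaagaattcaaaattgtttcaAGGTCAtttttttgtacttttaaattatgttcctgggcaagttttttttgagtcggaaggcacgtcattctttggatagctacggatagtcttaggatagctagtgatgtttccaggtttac

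Of these 7 sequences, 2 held any of the motifs. The cyp-13A1 site had AGGTCA, and the cyp-13A2 site had GAGAGA, which reads TCTCTC on the forward strand. Over all 15 pooled sites at P450 genes, AGGTCA lay within 75 bp of the summit at 1, GAGAGA lay there at 1, and the other 3 motifs were at 0. Over the 3564 distinct pooled sites at protein-coding genes, the shares were 3.28% for AGGTCA, 12% for GAGAGA, 2.3% for GGGTCA, 13.8% for TGATAA and 1.94% for GTAAACA. A match describes the letters in the window and not a site of binding, and the absence of one says nothing about a factor.

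P450 genes had an NHR-11 summit near the 5' end about as often as other protein-coding genes did. A pooled summit lay within 1000 bp of 15 of the 75 genes (20%), against 20.7% of all protein-coding genes. No pooled summit was the strongest of more than 1 P450 gene, so these were 15 separate sites. Their false discovery rates ran from 0.096 at cyp-13A2 and 0.25 at cyp-13A3 to 0.93 at cyp-14A4, so most of these peaks may be background. Replicate 1 had a summit at 36 genes (48.0%, against 45.1%) and replicate 2 at 39 (52.0%, against 49.5%). Summits in replicate 1 were shared by cyp-13A6 with cyp-13A7 and by cyp-33C6 with cyp-33C7, which left 34 distinct summits there, while the 39 in replicate 2 were distinct. With as many of the strongest peaks of 1 replicate in place of the pooled list, 23 P450 genes had a summit in replicate 1 (30.7%, against 20.3% of all protein-coding genes) and 13 in replicate 2 (17.3%, against 20.8%). With shared summits counted once, these were 21 summits in replicate 1 and 13 in replicate 2. Both replicates had a summit at 22 genes (29.3%, against 27.1%), and none of the lists had one at 21 genes (28.0%, against 32.4%). A thresholded summit lay at 1 gene, cyp-13A2 (1.33%, against 0.36% of all protein-coding genes).

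**Figure D1:**
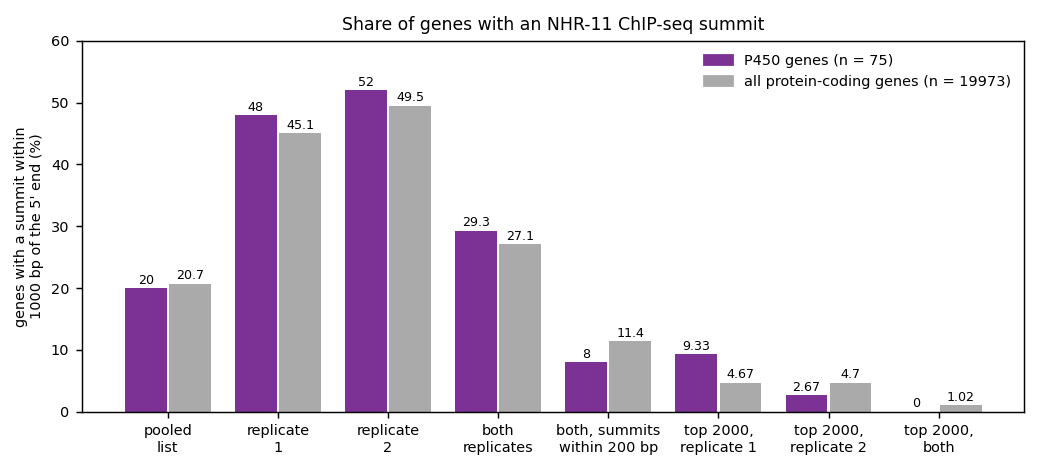
Bars show the share of genes, in percent, with a summit within 1000 bp of the 5' end, for the 75 P450 genes (purple) and all 19973 protein-coding genes (grey), in the pooled list, in each replicate, in both, and among the 2000 strongest peaks of the replicates. The pooled shares are 20% and 20.7%, and no P450 gene is among the 2000 strongest of both replicates.

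The pooled summits that were present at P450 genes had a median rank of 3188, against 4477 over all protein-coding genes with a pooled summit. A pooled summit among the 2000 strongest lay at 6 P450 genes (8.0%), against 4.9% of all protein-coding genes. Of these 6, 3 were cyp-13A genes. Without the 11 genes of the 13A subfamily, 10 of 64 genes had a pooled summit (15.6%), their median rank was 4563.5, and 3 (4.69%) were among the 2000 strongest.

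The cyp-13A genes, which resemble the mammalian CYP3A drug-metabolising enzymes, held the strongest sites of the family. Of 11, 8 lie side by side on chromosome II, and 5 of these 8 had a pooled summit. The highest was at cyp-13A2, with a peak at chrII:9787297-9787652. Its signal was 56.5 in the pooled list (rank 89, false discovery rate 0.096), and the summit lay 154 bp inside the gene, in the annotated 5' UTR. Replicate 1 had 2 overlapping peaks there, with signals of 45.0 (rank 23) and 29.5 (rank 277), while the strongest peak of replicate 2 had a signal of 13.99 (rank 5882). The 2 strongest replicate summits lay 116 and 99 bp from the pooled summit, on opposite sides of it. Replicate 1 alone again put cyp-13A2, and no other P450 gene, among its 101 strongest peaks, and replicate 2 alone put 0 P450 genes there.

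At cyp-13A3 the replicates stood the other way round. Its pooled peak at chrII:9793331-9793686 had a signal of 44.5 (rank 344), with an intergenic summit 212 bp upstream of the 5' end. The peak of replicate 2 had a signal of 28.6 (rank 136), 5 bp from the pooled summit. In replicate 1 the strongest peak near that summit had a signal of 16.6 (rank 5280), 189 bp away, and the strongest within the 1000 bp window was another peak, with a signal of 17.8 (rank 3946) and its summit in an intron 247 bp inside the gene.

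At cyp-13A8 the pooled peak at chrII:9807215-9807570 had a signal of 38.5 (rank 716), with its summit in a coding exon 176 bp inside the gene. Replicate 1 gave a signal of 27.7 (rank 374), 10 bp from the pooled summit. Replicate 2 gave 13.2 (rank 7432), 32 bp from it. At cyp-13A1 the pooled peak (chrII:9781111-9781466, signal 29.7, rank 2685) lay in an intron, 708 bp inside the gene. Here replicate 1 was the lower, with 12.5 (rank 13696) against 19.1 in replicate 2 (rank 1294), although the replicate summits were 2 bp apart, the closest pair of any P450 gene. The last of the 5 was cyp-13A5, with a pooled signal of 24.8 (rank 5923) 379 bp upstream and no replicate summit within 1000 bp of its 5' end.

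The other cyp-13A genes had weaker peaks or none. A summit of replicate 1 with a signal of 16.6 (rank 5260) lay between cyp-13A6 and cyp-13A7, the latter known for its induction by rifampicin, and cyp-13A6 also had a peak of replicate 2 with a signal of 10.6 (rank 14959). At cyp-13A4 replicate 1 alone had a peak (14.2, rank 9306). Outside the row of 8, cyp-13A10, cyp-13A11 and cyp-13A12, the last known for its part in the response to reoxygenation after hypoxia, had no summit in any list. In the related 13B subfamily, cyp-13B1 (16.8, rank 2544) and cyp-13B2 (11.01, rank 13567) had summits of replicate 2 alone.

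Summits were dense over the whole row of cyp-13A genes, which was singled out after its values were seen. From 1000 bp before the first gene to 1000 bp past the last, 30.4 kb held 13 pooled summits, 5 of them among the 2000 strongest. This was 42.8 per 100 kb, against 9.9 over the genome and 11.2 over chromosome II. Replicate 1 had 21 summits there and replicate 2 had 19, which are 69.1 and 62.5 per 100 kb against 25.7 and 29.1 over the genome. The density was not limited to the P450 genes. The 100 kb to the left of the row held 35 pooled summits and the 100 kb to the right held 31. Of 3296 windows of the same length laid end to end along the genome, 12 (0.364%) held at least 13 pooled summits. For replicate 1, 8 windows (0.243%) held at least 21, and for replicate 2, 43 windows (1.3%) held at least 19. The control and the read depth over this stretch were not analysed here, and their part in its density was not tested.

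**Figure D2:**
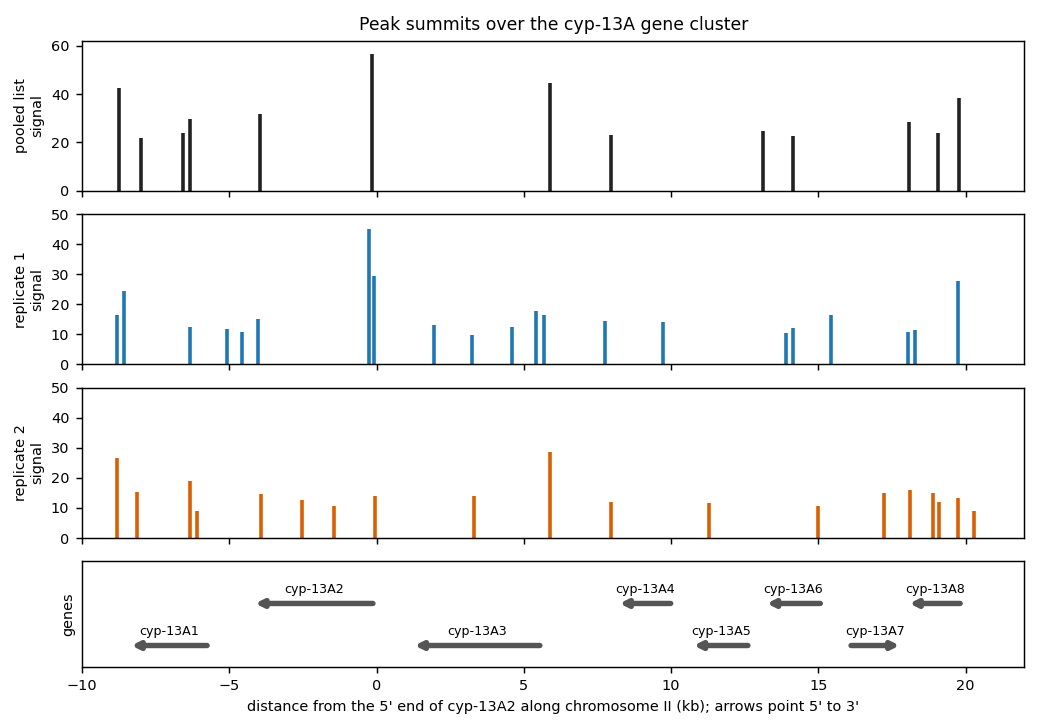
Vertical lines mark peak summits over the row of 8 cyp-13A genes by their distance from the 5' end of cyp-13A2 in kb (horizontal) and their signal in the authors' unit (vertical) in the pooled list, replicate 1 and replicate 2, with the genes as arrows below. The highest pooled and replicate 1 lines stand at cyp-13A2, and the highest replicate 2 line, at 28.6, stands beside cyp-13A3.

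Other rows of neighbouring P450 genes had fewer pooled summits. The row of 10 genes from cyp-35A5 to cyp-34A10 on chromosome V spans 38.7 kb and held 3 pooled summits, 7.76 per 100 kb, against 8.18 over that chromosome. Replicate 1 had 23.3 per 100 kb there (against 23.1), and replicate 2, with 17 summits, had 44 (against 26.5). The 5 genes from cyp-33C4 to cyp-33C7 had 0 pooled summits in 18.5 kb. The 4 genes from cyp-33C1 to cyp-33C12 had 2 in 26.9 kb (7.44 per 100 kb), both among the 2000 strongest. The cyp-25A row on chromosome III and the cyp-14A row on chromosome X had 1 pooled summit each, with 4 genes in either. These were 4.65 and 4.73 per 100 kb, against 9.9 over the genome. None of these 5 rows held a thresholded summit. The genome held 0.101 of these per 100 kb, so a row of this length would seldom hold one.

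The families CYP14, CYP33, CYP34 and CYP35, most of whose genes lie on chromosome V, belong with the CYP2-like enzymes, of which several respond to foreign compounds. The highest pooled signals in this group were at cyp-33C2 and cyp-33C12. At cyp-33C2 the peak (chrV:2182979-2183334) had a pooled signal of 39.3 (rank 633), 331 bp upstream. Its summit fell in a coding exon of the neighbouring chemoreceptor gene srbc-16. Replicate 1 gave 28.3 there (rank 332), while replicate 2 had no summit within 200 bp, its strongest in the window being 14.5 (rank 5058). At cyp-33C12 the peak (chrV:2204480-2204835) had a pooled signal of 38.4 (rank 738), intergenic and 258 bp upstream, with 20.9 in replicate 1 (rank 1805) and 11.7 in replicate 2 (rank 11421). In both cases replicate 1 ranked ahead of replicate 2.

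Further members of this group had pooled summits of lower rank. The cyp-34A5 peak (chrV:3957079-3957434) had a pooled signal of 28.7 (rank 3188), in a coding exon 451 bp inside the gene, with 22.3 in replicate 1 (rank 1279) and 14.5 in replicate 2 (rank 5166). The snRNA gene B0213.21 was a second gene within 1000 bp of it. The cyp-35B1 peak (chrV:3938985-3939340) had a pooled signal of 24.8 (rank 5973), 131 bp inside the gene, which is known as a target of the insulin-pathway factor DAF-16. Replicates 1 and 2 gave this gene 19.9 (rank 2350) and 14.8 (rank 4687), with summits 415 bp apart. At the pooled summit itself replicate 2 had 9.21 (rank 21570), 1 bp away, and its stronger peak lay 126 bp upstream of the 5' end. The noncoding RNA gene K07C6.16 also lay within the window. The cyp-35D1 peak (chrV:16068442-16068797) had a pooled signal of 24.6 (rank 6106), 618 bp upstream and in the pseudogene WBGene00008828, with 14.5 (rank 8749) and 10.9 (rank 14142) in replicates 1 and 2. This gene takes part in the metabolism of thiabendazole. At cyp-33C9 (23.1, rank 7876) and cyp-14A4 (22.8, rank 8178) the pooled signals were the lowest of the 15. The cyp-14A4 summit had 4 other genes within 1000 bp, 2 tRNA genes and 2 noncoding RNA genes, the nearest at 164 bp.

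Several well-studied members of this group had only replicate peaks or none. At cyp-35A2, a gene induced by foreign compounds, replicate 1 gave 15.8 (rank 6499) and replicate 2 gave 11.4 (rank 12189), with summits 722 bp apart. The gene cyp-35C1, named after its values were seen, had a summit of replicate 1 with a signal of 23.5 (rank 953) and none in replicate 2. At cyp-33E2, which makes eicosanoids from polyunsaturated fatty acids, only replicate 1 had a summit (18.7, rank 3196), and at cyp-33E1 only replicate 2 (12.8, rank 8322). At cyp-14A1 no list had a summit. Outside these families, cyp-36A1, which acts downstream of the hypoxia pathway, had a summit of replicate 1 alone within 1000 bp (17.0, rank 4795).

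In the CYP4-like group (CYP29, CYP31, CYP32, CYP37 and CYP42), whose mammalian relatives oxidise fatty acids, cyp-29A2 had the highest pooled signal. Its peak at chrV:11216592-11216947 had 35.6 (rank 1091) and lay 813 bp upstream, in the 3' UTR of K10D6.4. It was the P450 gene nearest to a high rank in both replicates, with 28.6 in replicate 1 (rank 314) and 17.6 in replicate 2 (rank 2022). These were different places, however, since the summit of replicate 1 lay 234 bp inside the gene and that of replicate 2 lay 691 bp upstream of it. At the pooled summit itself replicate 1 had 15.7 (rank 6665). At cyp-32A1 the pooled signal was 27.4 (rank 3936), 897 bp upstream, with the piRNA gene 21ur-10679 as a second gene.

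Some members with known roles in sterol signalling and in the embryo were among the 28.0% of P450 genes with no summit in any list. Over all protein-coding genes that share was 32.4%. At daf-9 none of the 3 lists had a summit within 1000 bp. The same held for cyp-31A2 and cyp-31A3, which are needed for the lipid layer of the eggshell, for cyp-44A1, the mitochondrial-type P450, and for cyp-37A1 and cyp-42A1. In the same subfamily as the first of these, cyp-31A5 had weak summits in replicate 1 (10.2, rank 22884) and replicate 2 (8.69, rank 24451). At cyp-29A3, an enzyme of eicosanoid synthesis, replicate 1 alone had a summit (11.03, rank 19177), and at cyp-23A1 replicate 2 alone (13.3, rank 7212). In the CYP3-like group beside CYP13, cyp-25A2 had a pooled signal of 25.6 (rank 5191), 432 bp upstream.

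The 60 P450 genes without a pooled summit fall into 3 sets. Both replicates had a summit at 8 of them (10.7% of the 75, against 11.9% of all protein-coding genes), namely cyp-13A6, cyp-31A5, cyp-33C1, cyp-33C3, cyp-34A6, cyp-35A2, cyp-35A5 and cyp-35B3. A single replicate had one at 31, of which 14 were in replicate 1 and 17 in replicate 2. Over all 75 genes a summit in replicate 1 only was found at 18.7% (against 18.0%) and in replicate 2 only at 22.7% (against 22.4%). The remaining 21, to account for every gene, were daf-9, cyp-13A10, cyp-13A11, cyp-13A12, cyp-14A1, cyp-14A3, cyp-14A5, cyp-25A3, cyp-25A4, cyp-25A6, cyp-31A2, cyp-31A3, cyp-33A1, cyp-33B1, cyp-33C5, cyp-33D1, cyp-34A9, cyp-35A4, cyp-37A1, cyp-42A1 and cyp-44A1. At the edge of the window, the pooled summit of cyp-32A1 lay just inside at 897 bp, and those of cyp-13A6 (22.5, rank 8597) and cyp-36A1 (24.1, rank 6644) lay just outside, at 1052 and 1100 bp. Beside that of cyp-36A1, replicate 1 (12.8, rank 12886) and replicate 2 (11.2, rank 12898) had summits at 1067 and 1098 bp. Counting summits anywhere inside the gene instead, 13 P450 genes (17.3%) held a pooled summit, against 20.4% of all protein-coding genes.

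**Figure D3:**
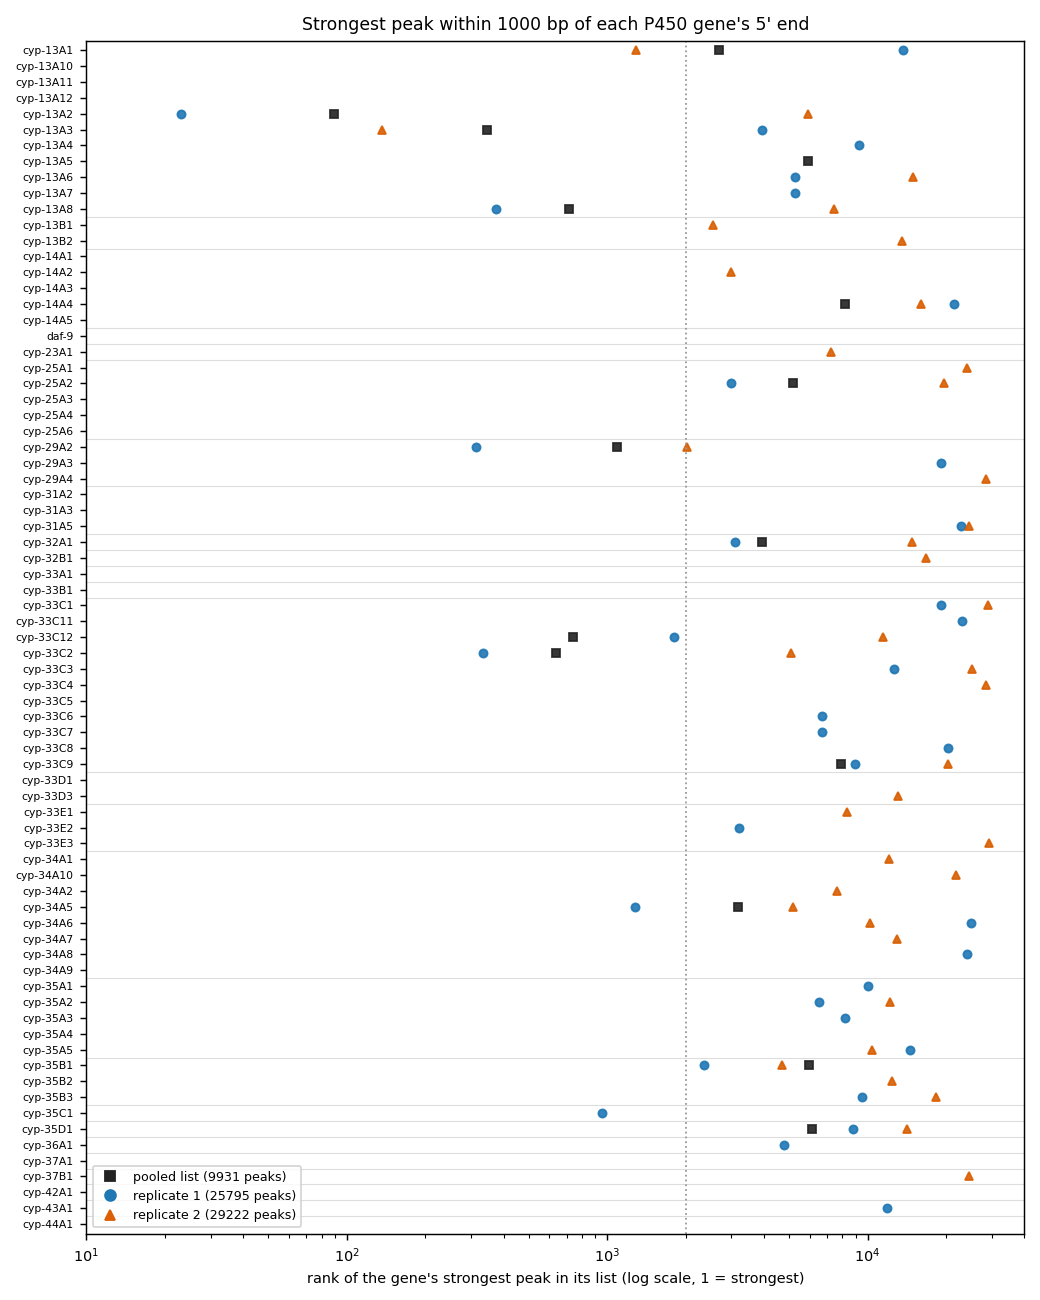
Each row is 1 of the 75 P450 genes, in order of subfamily, and each symbol is the rank of its strongest peak within 1000 bp of the 5' end (horizontal, log scale, 1 is the strongest) in the pooled list (squares), replicate 1 (circles) and replicate 2 (triangles). The dotted line marks rank 2000, and the 21 rows without a symbol are the genes with no summit in any list.

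By chromosome, the P450 genes with pooled summits were on II, V, III and X. Chromosome II had 5 of its 12 (41.7%), all in the cyp-13A row, against 23.5% of all protein-coding genes there. Chromosome V had 8 of 41 (19.5%, against 16.1%). Chromosome III had 1 of 6 (against 23.4%), chromosome X had 1 of 8 (against 23.3%) and chromosome IV had 0 of 7 (against 19.1%), each a count over few genes. The only P450 gene on chromosome I, cyp-36A1, had none.

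The pooled sites lay on both sides of the 5' ends. Of 15 summits, 9 (60%) were upstream, against 58.0% of the distinct pooled sites at protein-coding genes, and the median distance was 379 bp, against 362 bp. By annotation, 6 were intergenic, 4 in coding exons, 2 in introns, and 1 each in a 5' UTR, a 3' UTR and a noncoding exon. The GC content of the 151 bases had a median of 34.4%, against 33.8%, and ranged from 15.9% at cyp-13A5 to 45.7% at cyp-13A8. Many P450 genes of the worm arose by tandem duplication, so the peaks were compared with the rest of the genome. The cyp-25A2 peak matched 40 other places in stretches of 50 bp or longer with at least 90% of bases identical. The other 14 peaks, those at the cyp-13A genes included, had no such match, while 8.0% of the pooled peaks at protein-coding genes had one.

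**Figure D4:**
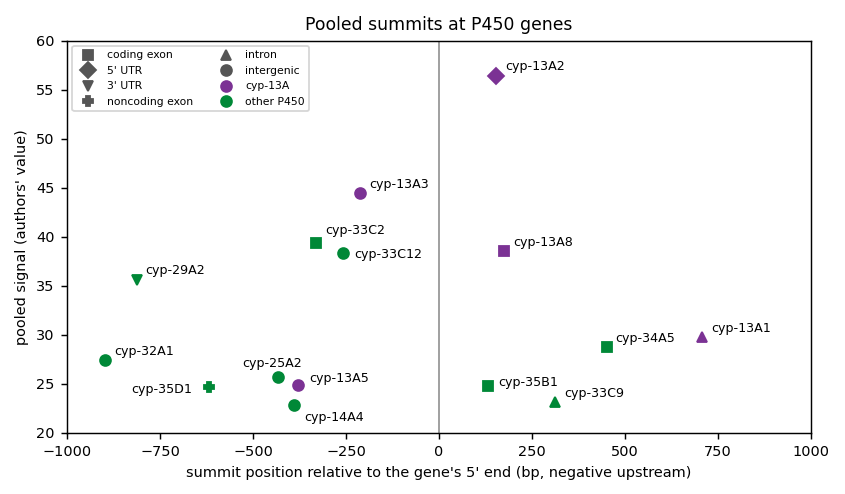
Symbols show the 15 pooled summits at P450 genes by position relative to the 5' end in bp (horizontal, negative is upstream) and pooled signal in the authors' unit (vertical), with the shape giving the annotation at the summit and purple marking cyp-13A genes. The highest, cyp-13A2 at 56.5, lies 154 bp inside the gene, and 9 of the 15 lie upstream.

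High ranks in both replicates at once were not seen at P450 genes and were uncommon over all protein-coding genes. Among the 2000 strongest peaks, replicate 1 had a summit at 7 P450 genes (9.33%, against 4.67% of all protein-coding genes) and replicate 2 at 2 (2.67%, against 4.7%). Those of replicate 1 were cyp-13A2, cyp-13A8, cyp-29A2, cyp-33C2, cyp-33C12, cyp-34A5 and cyp-35C1, and those of replicate 2 were cyp-13A1 and cyp-13A3. No gene was in both sets (0 of 75, against 1.02% of all protein-coding genes). Ranked by false discovery rate instead of signal, cyp-29A2 was in both, through its 2 separate peaks (1.33% of P450 genes, against 1.02% of all protein-coding genes).

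At most P450 genes with a summit in both replicates, the strongest replicate summits lay over 200 bp apart. They were within 200 bp of each other at 6 of these 22 genes, against 2280 of 5418 over all protein-coding genes. The 6 (8.0% of all 75, against 11.4% of all protein-coding genes) were cyp-13A1, cyp-13A8, cyp-14A4, cyp-33C12, cyp-34A5 and cyp-34A6. At cyp-13A2 the strongest summits were 215 bp apart, but a weaker peak of replicate 1 lay 15 bp from that of replicate 2. Over the 22 genes the median distance between the strongest replicate summits was 395.5 bp, from 2 to 1227 bp. The median was 302 bp over the distinct pairs of all protein-coding genes. These 22 pairs come from the same 2 libraries and mostly from summits over 200 bp apart. Across them the rank correlation of the 2 signals (Spearman's rho) was 0.519 and the correlation of their log2 values (Pearson's r) was 0.422. Over the 4916 distinct pairs of all protein-coding genes they were 0.158 and 0.246. Without the 13A subfamily, 17 P450 pairs remained, with 0.596 and 0.712, so both values were higher without the cyp-13A genes.

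At the pooled summits themselves, replicate 1 had a summit within 200 bp at 14 of the 15 sites (against 80.6% of the distinct pooled sites at protein-coding genes) and replicate 2 at 11 (against 76.9%). Both had one at 11 sites (73.3%, against 58.2%), replicate 1 alone at 3 and neither at 1, that of cyp-13A5 (against 0.758%). Taking the strongest peak of each replicate within 200 bp of the pooled summit, the log2 ratio of the signal in replicate 1 to that in replicate 2 ran from -0.79 at cyp-13A3 to 1.69 at cyp-13A2. Over the 2075 sites at protein-coding genes with both replicates the median ratio was 0.247, with 5% below -0.741 and 5% above 1.19. A ratio at least as high as that of cyp-13A2 was seen at 0.482% of those sites, and one at least as low as that of cyp-13A3 at 3.95%. The 2 replicate summits compared were 215 bp apart at cyp-13A2 and 194 bp apart at cyp-13A3. With the closest pair of replicate summits instead, a choice made after the data were seen, the ratio at cyp-13A2 was 1.08 (signals of 29.5 and 13.99, summits 15 bp apart), which 8.1% of sites reached, and that at cyp-13A3 was unchanged. The high ratio at cyp-13A2 thus depended on which of the 2 overlapping peaks of replicate 1 was used.

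**Figure D5:**
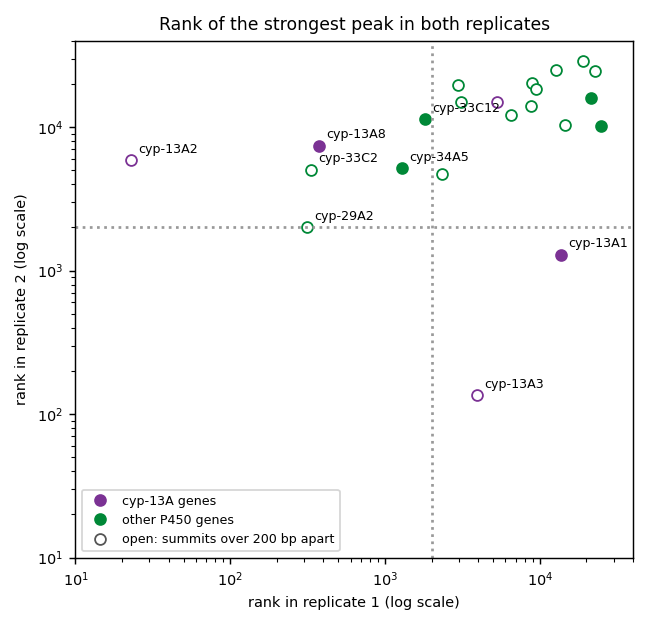
Points are the 22 P450 genes with a summit in both replicates, by the rank of the strongest peak in replicate 1 (horizontal) and replicate 2 (vertical), both on log scales, with cyp-13A genes in purple and open points where the summits lay over 200 bp apart. Dotted lines mark rank 2000, and no point lies below both.

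Promoters of P450 genes were read for the same motifs. In the 300 bases from 250 before to 50 after the 5' end, TGATAA, the core of the site bound by intestinal GATA factors, was found on either strand in 33 of 75 (44%), against 30.2% of all protein-coding genes. AGGTCA was found in 8 (10.7%, against 8.27%) and GGGTCA in 1 (1.33%, against 4.81%). GAGAGA was in 11 (14.7%, against 21.8%) and GTAAACA in 5 (6.67%, against 4.77%). A base could count for more than 1 motif, and the counts are a description of letters only.

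Genes that work with P450 enzymes were counted in the same way. Over all protein-coding genes, the shares with a summit were 20.7% in the pooled list, 45.1% in replicate 1 and 49.5% in replicate 2. The lists below are short, so their shares rest on few genes. Of the 3 redox partners, emb-8 (the P450 reductase), cytb-5.1 and cytb-5.2 (cytochrome b5), only cytb-5.1 had a pooled summit (22.8, rank 8283). All 3 had a summit in replicate 1, and 2 had one in replicate 2. Of 8 other genes of dafachronic acid synthesis and signalling, 1 (12.5%) had a pooled summit, din-1, a corepressor of DAF-12. Its pooled signal was 41.8 (rank 459), 647 bp upstream, with 15.5 in replicate 1 (rank 6965) and 35.5 in replicate 2 (rank 46). Replicate 1 had a summit at 5 of the 8 (62.5%) and replicate 2 at 3 (37.5%). Among its 2000 strongest, replicate 1 had 2 of the 8 (25%, against 4.67% of all protein-coding genes). These, named after their values were seen, were daf-12 (21.6, rank 1512) and daf-36 (21.3, rank 1623). Neither had a summit in replicate 2 or in the pooled list. Of 13 regulators linked to P450 genes, 3 (23.1%) had a pooled summit. These were elt-2, the intestinal GATA factor gene (36.04, rank 1011), nhr-69 (32.2, rank 1824) and nhr-25 (23.5, rank 7371). Replicate 1 had a summit at 6 of the 13 (46.2%) and replicate 2 at 11 (84.6%).

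Conjugating enzymes act on the products of P450 oxidation. Of 67 glucuronosyltransferase genes (names starting with ugt-), 11 had a pooled summit (16.4%), with ugt-60 (55.5, rank 97), ugt-16 (47.5, rank 245) and ugt-22 (29.7, rank 2695) as the highest. The first of these was among the 2000 strongest of both replicates, with 26.7 (rank 442) and 24.95 (rank 264). Of 44 glutathione transferase genes (names starting with gst-), 6 had a pooled summit (13.6%), with gst-5 (31.8, rank 1923), gst-42 (30.9, rank 2206) and gst-40 (23.6, rank 7260) as the highest. Both pooled shares were below the 20.7% of all protein-coding genes, but the replicate shares were not uniformly so. Of the ugt- genes, 46.3% had a summit in replicate 1 (against 45.1%) and 41.8% in replicate 2 (against 49.5%). Of the gst- genes, 43.2% had one in replicate 1 and 56.8% in replicate 2.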

How the data were processed

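Peak lists (narrowPeak) were deposited for 2 biological replicates, with fragments of 150 to 350 bp per the labels. Per the descriptions deposited with the files, the authors called 1 list per replicate against a control and 1 on the replicates pooled; the thresholded list came out of comparing these with an irreproducible discovery rate (IDR). The peak signal is the authors' deposited value. The deposited −log10 column was read as the false discovery rate (q-value) within a list. The aligner, peak caller, settings and depth are not given in the sources used here, and the ce10 lists were left out. No source states that the replicates were scaled to each other, and their ratio therefore includes any difference in depth.

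Genes came from Ensembl release 115 and sequence from the RefSeq WBcel235 genome, and coordinates are on ce11, counted from 1. Of the peaks within 1000 bp of a gene's 5' end by summit, the one with the highest signal was kept. Summits were annotated as coding exon first, then UTR, noncoding exon, intron and intergenic. Matches elsewhere were sought with BLAST 2.17.0 (at least 90% identity over at least 50 bp), and touching matches were merged. Rows of neighbouring P450 genes were runs of at least 3 with 5' ends at most 20000 bp apart. The 2 replicates form 1 group, so no test was made. Python 3.11.15, numpy 2.4.6, scipy 1.17.1 and matplotlib 3.10.9 were used.

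The members, lists and alternatives were chosen with earlier results of these data known. Named are P450 genes with a thresholded summit, with a summit among the 2000 strongest of the pooled or of both replicate lists, with the 15 highest pooled signals or the highest of their subfamily, or with a known role, and up to 3 genes of each related list. Other names account for every gene or are marked. The rows, the comparison with genome windows, the closest pairs and the matching at the pooled summit were added after the data were seen.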

Additional observations from a re-analysis of the deposited data

How the results depend on the processing

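Counts of P450 genes moved with the window. At 500 bp, 12 genes had a pooled summit (16%, against 13.2% of all protein-coding genes). There 11 genes had a summit in both replicates and 3 had their strongest replicate summits within 200 bp of each other (14.7% and 4%, against 13.3% and 8.31% of all protein-coding genes). At 2000 bp, 23 had a pooled summit and 37 a summit in both replicates (30.7% and 49.3%, against 33.2% and 50.2%), while the count within 200 bp stayed at 6 (8%, against 13.8%). The 23 genes had 21 distinct pooled summits. Limits of 100 and 400 bp for the distance between replicate summits gave 3 and 11 genes (4% and 14.7%, against 7.62% and 15.3%). Among the 2000 strongest peaks of both replicates there was 1 gene when ranked by false discovery rate, cyp-29A2 (1.33%, against 1.02% of all protein-coding genes). Among the 5000 strongest there were 3 (4%, against 2.95%). Leaving out 1 replicate and using the other alone gave 13 to 23 genes with a summit in as many peaks as the pooled list holds, 0 to 1 in as many as the thresholded list holds, 36 to 39 with any summit, and 2 to 7 among its 2000 strongest. Each of these extremes was the value of 1 replicate. Replicate 1 alone gave 23, 1, 36 and 7 (30.7%, 1.33%, 48% and 9.33%, against 20.3%, 0.315%, 45.1% and 4.67% of all protein-coding genes). Replicate 2 alone gave 13, 0, 39 and 2 (17.3%, 0%, 52% and 2.67%, against 20.8%, 0.33%, 49.5% and 4.7%). Using the 5' ends of all transcripts, or any base of a peak, moved no count by over 1.5 times. No paired analysis was possible because there was 1 group. The depth of the libraries is unknown, so a gene without a summit was not shown to be unbound.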
